A study of Homo sapiens with 6 samples.

Results

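Peaks of DPF3a, SMAD4 and p300 were described at 10 genes of MET, AXL and EGFR signalling, out of 20033 protein-coding genes: the receptors MET, AXL, EGFR and ERBB2, and the ligands HGF, GAS6, TGFA, HBEGF, AREG and EREG. The genes were taken by name and not by a threshold on their peaks, but with earlier results of these data known. Comparisons with all genes below are therefore descriptions only. A peak was assigned to a gene when its summit lay in the gene or within 20 kb on either side (GENCODE release 44, hg38). Chromatin immunoprecipitation followed by sequencing (ChIP-seq) had been carried out in 786-O, an established cell line of renal cell carcinoma, with 2 replicate libraries for each of the 3 proteins. HA-tagged DPF3a, part of the SWI/SNF complex that remodels chromatin, was overexpressed and precipitated with an HA antibody, and SMAD4, a transcription factor of the TGF-β pathway, and p300, a histone acetyltransferase, were precipitated with antibodies to the proteins themselves. DPF3a chromatin was fixed with disuccinimidyl glutarate and formaldehyde, and that for SMAD4 and p300 with formaldehyde alone. The sources used here do not say whether the cells for SMAD4 and p300 also carried HA-DPF3a, and they name no input library for the peak calls. Each protein has 1 peak list made from both replicates, so no spread between replicates can be given, no test was made, and the 95% intervals below cover counting error only.

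MET, AXL, EGFR and ERBB2 are receptor tyrosine kinases, which pair up at the cell surface and signal to growth, survival and migration. Hepatocyte growth factor (HGF) activates MET and GAS6 activates AXL, whereas TGF-α (TGFA), heparin-binding EGF-like growth factor (HBEGF), amphiregulin (AREG) and epiregulin (EREG) are made as membrane-bound precursors, are cut free by ADAM proteases and activate EGFR. ERBB2 has no known ligand of its own and signals as a partner of EGFR. In clear cell renal cell carcinoma, where loss of VHL leaves hypoxia-inducible factors active, TGFA, MET and AXL are known as genes that these factors can raise.

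The windows of the 10 genes covered 1073 kb and held 66 DPF3a, 83 SMAD4 and 51 p300 summits. Summits in coding exons that lie over 2000 bp from a canonical protein-coding transcript start, here 1 of DPF3a, 14 of SMAD4 and 18 of p300, were counted apart and not read as binding. That left 65 binding summits for DPF3a, 69 for SMAD4 and 33 for p300. All 10 genes held at least 1 binding summit in every list. Among all protein-coding genes, 78.7% did so for DPF3a, 81.0% for SMAD4 and 64.1% for p300, so this was common and does not single out these genes. The 10 genes held 6.06 DPF3a, 6.43 SMAD4 and 3.08 p300 binding summits per 100 kb of window, beside 2.24, 2.13 and 0.949 over the windows of all protein-coding genes. MET, EGFR and HGF lie on chromosome 7, and without them 32, 34 and 16 binding summits were left.

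Peaks of different lists were called shared where each covered at least 0.5 of the other, and a DPF3a peak shared with a SMAD4 and with a p300 peak is called a site of all 3 factors. There were 17 such sites at 9 of the 10 genes, and HGF had none. Among all protein-coding genes 41.0% held such a site. EGFR held 5, TGFA 3, MET 2 and HBEGF 2, and AXL, GAS6, AREG, EREG and ERBB2 held 1 each. In all, 46 protein-coding genes (0.230%) held as many as EGFR or more, and 2.63% held as many as TGFA or more, but no allowance was made for window length, which was 232.6 kb for EGFR and 146.9 kb for TGFA against a median of 67.5 kb.

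**Figure D1:**
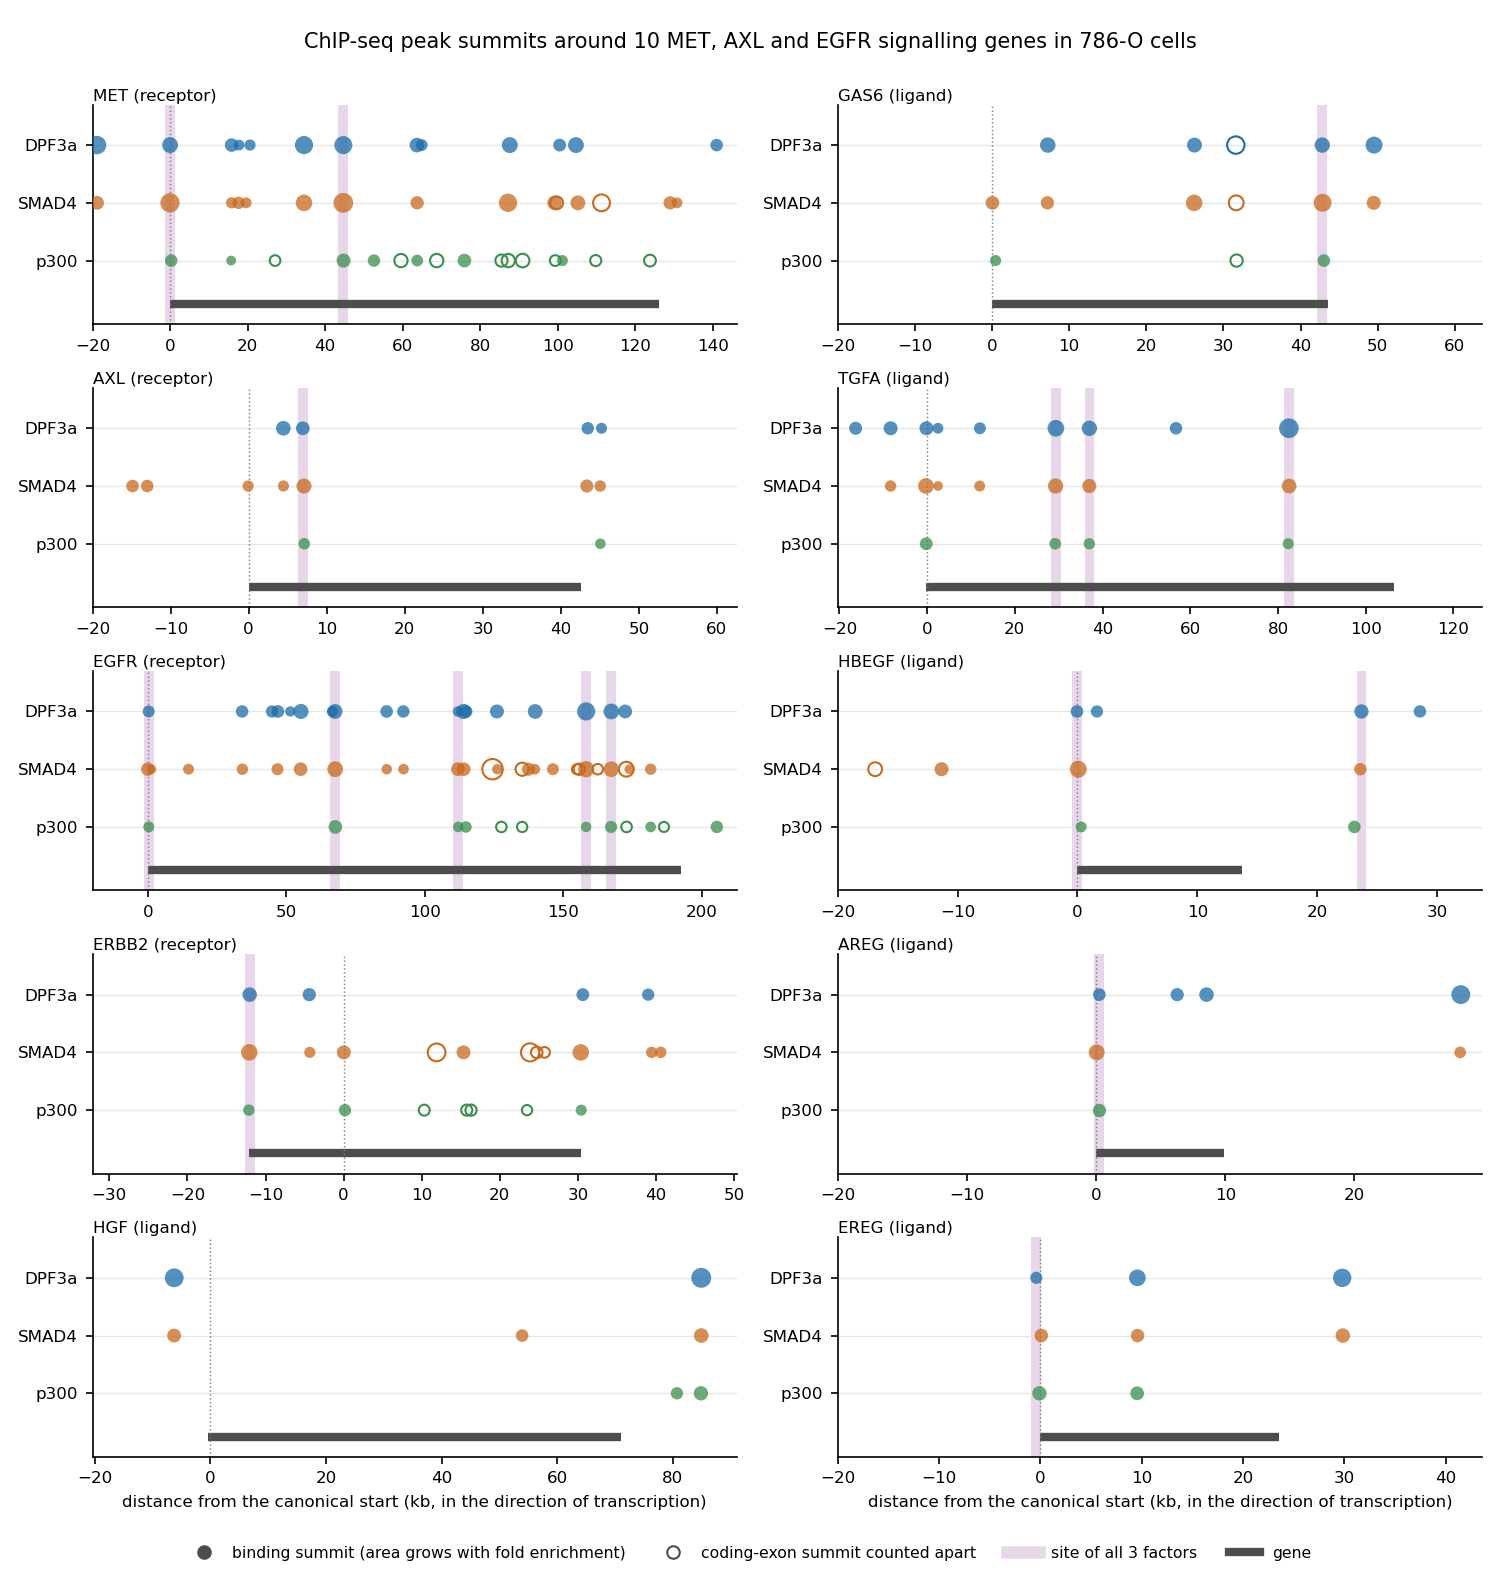
Peak summits of DPF3a, SMAD4 and p300 at each gene, by distance from the canonical transcript start in kb (x axis, in the direction of transcription), with filled circles for binding summits, open circles for coding-exon summits counted apart and vertical bands, drawn wider than the sites, for sites of all 3 factors. The 17 bands lie at 9 genes, with 5 at EGFR and none at HGF, and the open circles lie mostly at MET, EGFR and ERBB2.

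Sequences around some of the DPF3a summits are shown as 101 bp of the plus strand of hg38, 5′ to 3′, centred on the summit. All but the last pair were picked as peaks shared with SMAD4 that carry AP-1 or RUNX letters, so they are not typical. Of all 65 DPF3a binding summits, 9 carried the AP-1 and 4 the RUNX letters. Capitals mark exact matches on either strand to the letters TGAGTCA (AP-1), TGTGGTT (RUNX) or CATTCC (TEAD). The first pair are sites of all 3 factors in EGFR and TGFA with RUNX letters, and the EREG site, shared with SMAD4, has them too. The next 3 are sites in AXL and TGFA with AP-1 letters. The last pair, the site of all 3 factors in MET and the DPF3a peak of highest fold enrichment among the 10 genes, past the end of HGF, hold none of the letters searched.
EGFR intron 19, chr7:55177131-55177231: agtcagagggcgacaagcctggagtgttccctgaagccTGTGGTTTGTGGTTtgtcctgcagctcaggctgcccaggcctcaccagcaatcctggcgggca
TGFA intron 2, chr2:70471295-70471395: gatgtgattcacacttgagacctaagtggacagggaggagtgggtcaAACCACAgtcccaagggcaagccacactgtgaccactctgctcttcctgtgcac
EREG downstream, chr4:74394900-74395000: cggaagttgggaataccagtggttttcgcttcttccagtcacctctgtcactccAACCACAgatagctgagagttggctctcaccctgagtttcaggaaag
AXL intron 4 first site, chr19:41223614-41223714: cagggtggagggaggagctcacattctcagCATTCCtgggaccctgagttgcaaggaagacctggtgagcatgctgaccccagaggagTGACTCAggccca
AXL intron 4 second site, chr19:41226107-41226207: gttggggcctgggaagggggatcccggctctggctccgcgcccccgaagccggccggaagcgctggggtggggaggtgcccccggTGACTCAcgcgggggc
TGFA intron 1, chr2:70516781-70516881: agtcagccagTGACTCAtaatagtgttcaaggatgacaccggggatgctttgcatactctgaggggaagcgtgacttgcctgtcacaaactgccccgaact
MET intron 2, chr7:116716837-116716937: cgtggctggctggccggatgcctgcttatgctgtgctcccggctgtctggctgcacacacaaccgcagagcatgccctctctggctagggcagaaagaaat
HGF downstream, chr7:81685106-81685206: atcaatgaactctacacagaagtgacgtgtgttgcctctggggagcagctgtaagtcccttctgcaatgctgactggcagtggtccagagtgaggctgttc

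Peak strength is given as the fold enrichment at the summit, which is the read pileup plus 1 over the local background plus 1. Its rank is given as a percentile within its own list, since the lists differ in depth, antibody and fixation. This rank uses fold enrichment alone, and by the −log10 q of the peak call some peaks ranked far higher and others lower. The strongest peak is that of highest fold enrichment unless −log10 q is named. Among the receptors, MET, the HGF receptor, had 13 DPF3a, 13 SMAD4 and 7 p300 binding summits in 166.2 kb. A site of all 3 factors spanned its canonical start (chr7:116671899-116672948), where the DPF3a summit lay 8 bp upstream with a fold enrichment of 8.70 (6.81 to 10.96, 70 reads, percentile 72.7). The SMAD4 summit there, 30 bp upstream, reached 13.3 (11.7 to 15.0, 250 reads, percentile 97.7), and the p300 summit, 0.294 kb downstream, 5.06 (percentile 61.0). In rank within its own list, SMAD4 was thus the strongest of the 3 at this site.

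The other site of all 3 factors at MET lay in intron 2, 44.7 kb from the start (chr7:116716637-116717240). DPF3a had a fold enrichment of 11.5 (percentile 89.8), SMAD4 one of 14.0 (percentile 98.4) and p300 one of 6.59 (percentile 93.5), and the 3 summits fell within 65 bp of each other. It is the MET site whose sequence is shown above. No other of the 17 sites had all 3 percentiles of fold enrichment over 80. By −log10 q others did, among them the site at the MET start, with percentiles of 89.4, 99.8 and 97.9 for DPF3a, SMAD4 and p300.
DPF3a and SMAD4 shared further peaks without p300. At one, 18.9 kb upstream of MET, the DPF3a fold enrichment was 12.1 (percentile 91.9) and that of SMAD4 6.25 (percentile 49.5), and at another, in intron 2 and 34.5 kb from the start, they were 11.8 (percentile 90.7) and 9.59 (percentile 85.2). Of the 13 DPF3a peaks at MET, 9 were shared with SMAD4. One of these, in intron 15 and 104.7 kb from the start, was the strongest DPF3a peak of MET by −log10 q, at 8.62 (148 reads).

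EGFR, the receptor of the 4 EGF-family ligands, had 18 DPF3a, 19 SMAD4 and 8 p300 binding summits in 232.6 kb. Intron 1 alone, 122.9 kb long, held 12 DPF3a, 10 SMAD4 and 3 p300 binding summits and 2 of the 5 sites of all 3 factors. The DPF3a peak that spanned the canonical start was weak, with a fold enrichment of 4.49 (3.01 to 6.46, 27 reads, percentile 8.001). The p300 peak there was also low in its list by fold enrichment, at 3.59 (percentile 7.37), and SMAD4 gave 5.89 (percentile 44.03). By −log10 q the DPF3a, p300 and SMAD4 peaks at the start were at percentiles 31.6, 74.2 and 85.8.
By fold enrichment the strongest DPF3a peak of EGFR lay in intron 19, 158.2 kb from the start (chr7:55176933-55177515), at 11.7 (9.25 to 14.6, 77 reads, percentile 90.5). SMAD4 reached 9.12 (percentile 81.7) and p300 only 3.21 (percentile 2.08, but 56.6 by −log10 q) at this site, whose sequence above carries 2 adjacent RUNX matches next to the DPF3a summit. By −log10 q the strongest DPF3a peak of EGFR lay in intron 1, 114 kb from the start, at 7.85 (126 reads).
The site in intron 1, 67.6 kb from the start (chr7:55086227-55087192), held the strongest p300 summit of EGFR at 6.22 (percentile 89.6), with DPF3a at 7.40 and SMAD4 at 8.53. The site in intron 20 had fold enrichments of 8.54, 8.31 and 4.68 for DPF3a, SMAD4 and p300, and that in intron 1 at 111.9 kb had 3.10, 6.17 and 3.25. DPF3a fold enrichment thus varied widely among the 5 EGFR sites, from percentile 0.262 to percentile 90.5 of its list.

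AXL, the GAS6 receptor, had 4 DPF3a, 7 SMAD4 and 2 p300 binding summits. Its canonical start held a SMAD4 summit of low fold enrichment, 3.90 (percentile 7.71, but 39.9 by −log10 q), and neither of the other factors. DPF3a summits within the gene lay in intron 4 alone, where the first site, 4.44 kb from the start, had a DPF3a fold enrichment of 7.21 (5.92 to 8.70, 107 reads) and a SMAD4 fold enrichment of 3.81. The second site, of all 3 factors and 598 bp from the start of another annotated transcript, had 6.28 for DPF3a, 7.74 for SMAD4 and 4.14 for p300 (percentiles 42.9, 68.3 and 21.4). By −log10 q the percentiles were 88.5, 97.5 and 85.1. Both sites carry the AP-1 letters shown above. The other DPF3a and p300 summits of the window lay past the end of AXL, nearest to the start of HNRNPUL1 and 2, 8 and 91 bp from annotated transcript starts.

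ERBB2, the receptor without a ligand, had 4 DPF3a, 7 SMAD4 and 3 p300 binding summits. A SMAD4 summit at 6.59 lay 29 bp and a p300 summit at 4.87 lay 0.174 kb downstream of its canonical start, and the nearest DPF3a summit was 4.40 kb away. Its site of all 3 factors lay 12.03 kb upstream (chr17:39687659-39688361), in the promoter window of longer ERBB2 transcripts and 16 bp from an annotated transcript start. The nearest canonical start to this site was that of PGAP3, the neighbouring gene on the opposite strand. The site had 7.06 for DPF3a (23 reads), 9.551 for SMAD4 and 3.99 for p300. The DPF3a peak 4.40 kb upstream of the ERBB2 canonical start was shared with SMAD4. The other DPF3a peaks lay downstream of ERBB2, nearest to the canonical starts of MIEN1 and GRB7. No DPF3a summit therefore fell between the canonical start and the end of ERBB2.

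Among the ligands, HGF, which is made mainly by stromal cells, had the fewest DPF3a summits relative to its window, 2 in 111.4 kb, with 3 for SMAD4 and 2 for p300, and none of them lay at its start. Both DPF3a peaks were strong. One lay 13.9 kb past the gene end, at 14.2 (11.3 to 17.7, 77 reads, percentile 97.3), the highest DPF3a fold enrichment at any of the 10 genes, and the other 6.27 kb upstream of the start, at 12.6 (percentile 93.4). Both were shared with SMAD4, at 7.22 and 6.39. A p300 peak at 6.89 (20 reads, percentile 95.2, but 80.4 by −log10 q) touched the downstream site but fell short of the 0.5 overlap. HGF therefore had no site of all 3 factors by the rule used, with the DPF3a summit at 81685156 and the p300 summit at 81685219.

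GAS6, the AXL ligand, had 4 DPF3a, 5 SMAD4 and 2 p300 binding summits. All 4 DPF3a peaks were shared with SMAD4, and the site of all 3 factors was in intron 14, 42.8 kb from the start, with 8.09 for DPF3a, 11.4 for SMAD4 (percentile 94.0) and 5.16 for p300, where the peaks also reached a coding exon. The highest DPF3a fold enrichment among the binding peaks was 10.1, 6.004 kb past the gene end. The start of GAS6 held a SMAD4 summit at 6.25 that touched a p300 peak, and no DPF3a summit. A further site shared by all 3 factors, with a DPF3a fold enrichment of 10.6, had its summits in exon 10, which is coding, and was counted apart although another annotated transcript starts 1275 bp away.

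TGFA, the gene of TGF-α, had 9 DPF3a, 7 SMAD4 and 4 p300 binding summits and 3 sites of all 3 factors, all in its first 2 introns. The site in intron 2, 82.5 kb from the start (chr2:70471176-70471678), had the second highest DPF3a fold enrichment of the 10 genes, 13.8 (10.52 to 17.8, 57 reads, percentile 96.6), with SMAD4 at 7.33 and p300 at 3.72 (percentile 10.4). RUNX letters begin 3 bp from its summit in the sequence above.
The sites in intron 1 lay 29.3 and 37.0 kb from the start. The nearer one had 9.70 for DPF3a (110 reads), 7.95 for SMAD4 and 4.19 for p300, and the farther one, which carries the AP-1 letters, had 8.02, 6.66 and 3.995. The start of TGFA held the strongest SMAD4 and p300 summits of the gene, 8.499 (percentile 76.2) and 5.37 (percentile 74.1). The DPF3a summit there, at 6.53, lay in a peak that touched the p300 peak without reaching the required overlap. At TGFA the strongest DPF3a summit was therefore distal, and the strongest SMAD4 and p300 summits were at the start.

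HBEGF, AREG and EREG, all short genes, each had a site of all 3 factors whose DPF3a peak spanned the canonical start, although not every summit lay in the promoter window defined below. At HBEGF the DPF3a summit lay 40 bp upstream with 5.19 (21 reads, percentile 20.02), while SMAD4 reached 9.98 (percentile 87.7) and p300, 0.313 kb downstream, 3.53. At AREG the site had 5.17 for DPF3a (14 reads), 8.75 for SMAD4 (percentile 78.5) and 5.80 for p300 (percentile 84.0, but 67.8 by −log10 q). At EREG it had 4.68 for DPF3a (15 reads), 6.09 for SMAD4 and 7.0 for p300 (percentile 95.6), the highest p300 fold enrichment at any of the 10 genes, although the DPF3a and SMAD4 summits were 495 bp apart. At these 3 sites DPF3a thus ranked low by fold enrichment, at percentile 20.02 of its list or below, and SMAD4 ranked higher in its own.
Each of these genes had its DPF3a peak of highest fold enrichment downstream of its end. For AREG it lay 18.4 kb past the end at 12.7 (8.85 to 17.7, 33 reads, percentile 93.8), and for EREG 6.20 kb past the end at 12.03 (8.56 to 16.5, 37 reads, percentile 91.8), both shared with SMAD4, at 4.23 and 7.04, and not with p300. For HBEGF it lay 9.94 kb past the end at 6.86, as the other site of all 3 factors, with SMAD4 at 4.91 and p300 at 5.13; the nearest canonical start to that site is that of PFDN1. EREG also had an intron 1 peak, 9.58 kb from the start, with DPF3a at 9.70, SMAD4 at 5.98 and p300 at 6.24 (percentile 90.6). This p300 peak had 18 reads and was at percentile 68.7 by −log10 q.

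**Figure D2:**
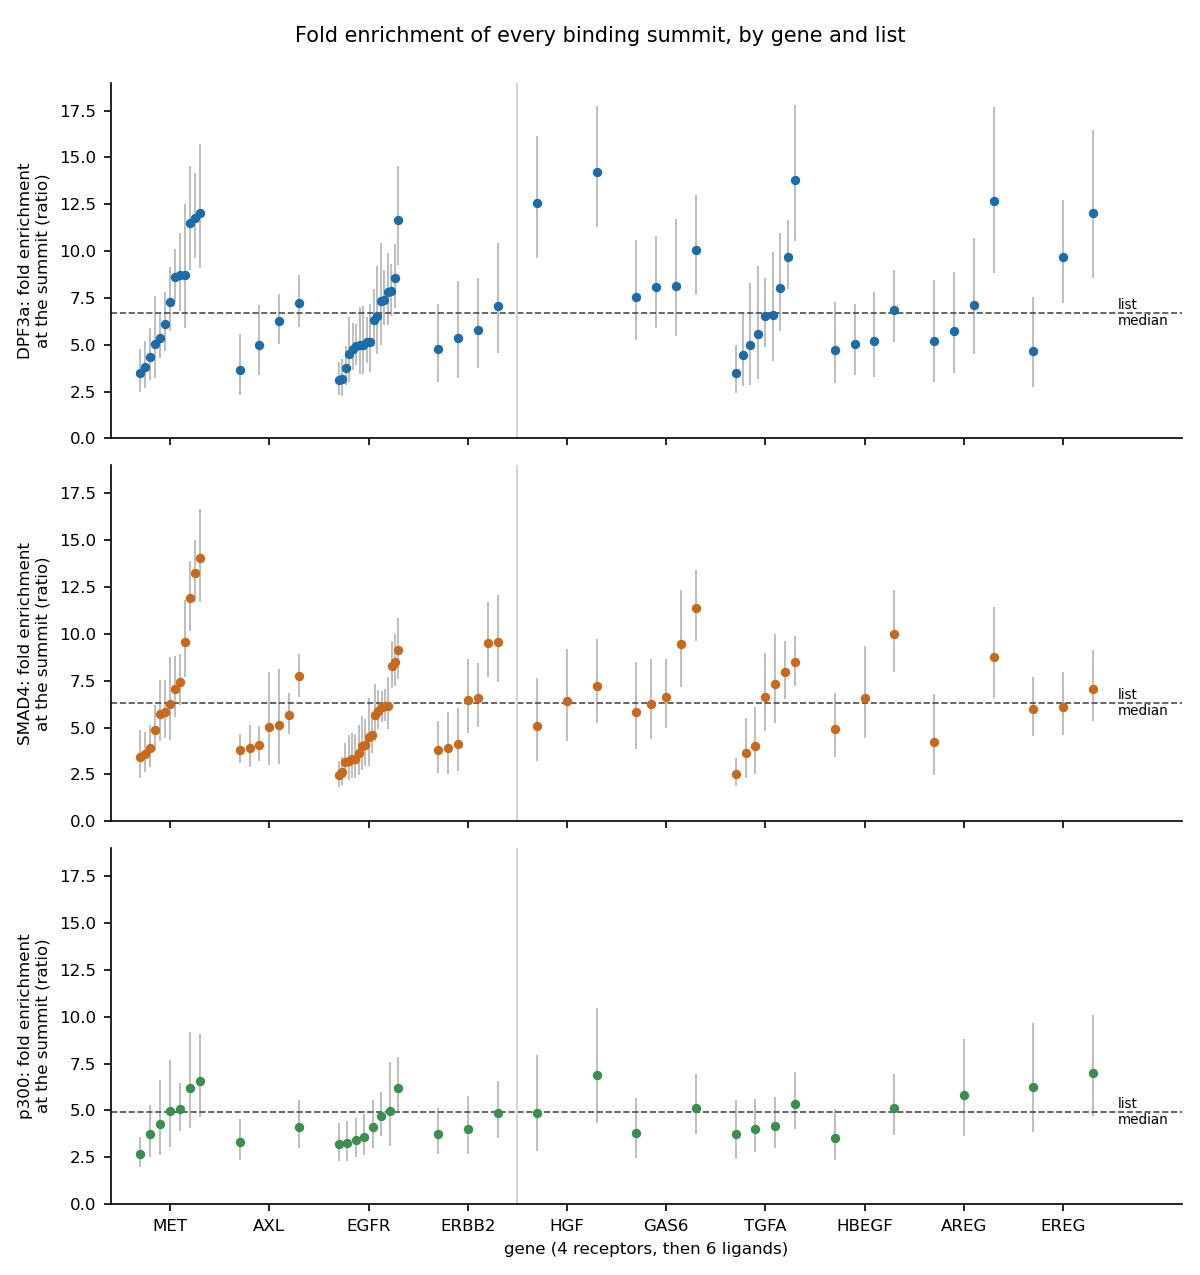
Fold enrichment (ratio) of every binding summit at each gene for DPF3a, SMAD4 and p300, in rising order within a gene, with 95% exact Poisson intervals of the summit reads (counting error only) and the median of each whole list as a dashed line. DPF3a summits range from 3.10 to 14.2, SMAD4 summits from 2.46 to 14.0 and p300 summits from 2.69 to 7.0, and the strongest DPF3a summits belong to HGF and TGFA.

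Taking the strongest binding peak of each gene, the order for DPF3a was HGF, TGFA, AREG, MET, EREG, EGFR, GAS6, AXL, ERBB2 and HBEGF, from 14.2 to 6.86. For SMAD4 it ran from MET (14.0) and GAS6 (11.4) down to HGF (7.22) and EREG (7.04), and for p300 from EREG (7.0) and HGF (6.89) down to ERBB2 (4.87) and AXL (4.14). HGF was first for DPF3a and ninth for SMAD4. The counting intervals of neighbours in each order overlapped in 9 of 9 pairs, and those of the first and the last gene did not overlap for DPF3a (11.3 to 17.7 against 5.14 to 8.98) or for SMAD4 (11.7 to 16.7 against 5.33 to 9.12), whereas they did for p300 (4.70 to 10.07 against 3.02 to 5.54). Over all binding summits of the 10 genes the median fold enrichment of DPF3a was 6.34, that of SMAD4 5.89 and that of p300 4.28, below the medians of the lists, 6.70, 6.31 and 4.92.

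Promoter summits, from 1000 bp upstream to 100 bp downstream of any transcript start of the gene, were held by 7 of the 10 genes for DPF3a, 9 for SMAD4 and 7 for p300. Some lay far from the canonical start. EGFR counted for p300 only by a summit in intron 24, 181.5 kb from that start, in a peak that reached a coding exon. AXL counted for DPF3a and p300 by summits in intron 4, and ERBB2 for DPF3a by one 12.03 kb upstream. Among all protein-coding genes the shares were 41.4%, 57.0% and 32.6%. With the same window around the canonical start alone the numbers were 4 for DPF3a (MET, TGFA, HBEGF and EREG), 9 for SMAD4 (all but HGF) and 2 for p300 (TGFA and EREG). Within 2500 bp of any transcript start each list had a summit at 9 genes. Most binding summits lay elsewhere, with 42 of 65 DPF3a summits, 40 of 69 SMAD4 summits and 18 of 33 p300 summits in introns. The window rule favours introns, since the gene itself can fill most of a window, as at EGFR with 192.6 of 232.6 kb. The share in introns over the lists is not given here.

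Of the 65 DPF3a binding peaks, 46 (70.8%, 58.8 to 80.4) were shared with SMAD4, against 59.3% of the whole DPF3a list. In all, 17 (26.2%, 17.0 to 38.0) were shared with both other factors, 29 (44.6%) with SMAD4 alone, 1 with p300 alone and 18 (27.7%) with neither, and in the whole list 15.2% were shared with both and 39.3% with neither. Of the 33 p300 binding peaks, 17 (51.5%, 35.2 to 67.5) were shared with both, against 38.4% of the list. The genes on chromosome 7 had 8 of 17 p300 peaks (47.1%) shared with neither, and the genes elsewhere 2 of 16 (12.5%), against 42.7% of the list. The 5 p300 binding summits that touched no peak of another list, at MET, EGFR and HGF, all lay on chromosome 7, with fold enrichments of 3.72 to 6.22. They were 29.4% of the 17 p300 binding peaks there, close to 29.2% of the list.
At peaks shared by DPF3a and SMAD4 the summits were a median of 53 bp apart (quartiles 28.5 and 111, 46 pairs), close to 49 bp in the whole lists. The distance was 137 bp for DPF3a and p300 (18 pairs) against 102 bp in the lists.

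**Figure D3:**
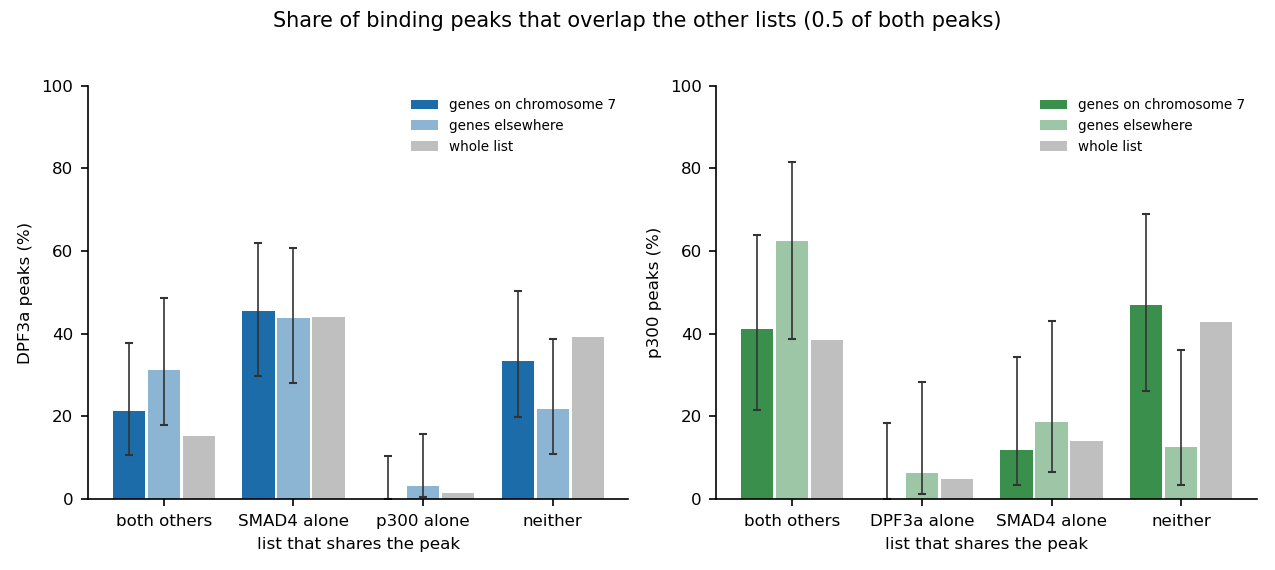
Share of DPF3a (left) and p300 (right) binding peaks, in percent, that overlap the other lists by at least 0.5 of both peaks, for the genes on chromosome 7 (MET, EGFR and HGF), the 7 other genes and the whole list, with 95% Wilson intervals (counting error only). For DPF3a, 45.5% and 43.8% of the peaks are shared with SMAD4 alone beside 44.2% of the list, and for p300 the genes elsewhere have 62.5% shared with both.

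The local background is the number of reads that the peak caller expected around a summit. Its median over the pooled summits of these genes was higher than in the lists, but not every gene shared this. At the binding summits its median was 4.84 reads in the DPF3a list, 8.26 in the SMAD4 list and 7.26 in the p300 list, beside 2.82, 5.16 and 3.78 in the lists. Over the pooled summits of MET, EGFR and HGF the medians were 8.44 (DPF3a), 9.92 (SMAD4) and 9.64 (p300) reads. Over all peaks on chromosome 7 they were 3.42, 6.22 and 2.84. HGF itself did not share the high values, with 3.78 and 4.48 reads for DPF3a, 3.32 to 4.82 for SMAD4 and 2.05 and 2.08 for p300. Over the pooled summits of the 7 other genes the medians were 3.30, 6.49 and 7.13 reads. Every AREG summit lay below the median of its list, with 1.68 to 2.32 reads for DPF3a, 2.78 and 5.06 for SMAD4 and 2.62 for p300. Pooled over all these genes, summits were also higher in reads, with medians of 37, 51 and 36 beside 25, 39 and 23 in the lists. The part of this background in the number of peaks was not tested.

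Coding-exon summits were unevenly spread. They made up 1.52% of the DPF3a summits at these genes (0.268 to 8.10), 16.9% of the SMAD4 summits (10.3 to 26.3) and 35.3% of the p300 summits (23.6 to 49.0), against 0.842%, 1.23% and 4.34% of the lists. The receptors held 12 of the 14 SMAD4 and 17 of the 18 p300 coding-exon summits, and AXL held none of them. MET had 9 for p300, EGFR 6 for SMAD4 and 4 for p300, and ERBB2 4 for each of both. The strongest was a SMAD4 summit in exon 3 of EGFR (position 55143435 of chromosome 7), at 15.0 (13.0 to 17.1, 214 reads, percentile 99.0), which touched no peak of the other lists. Of the SMAD4 and p300 coding-exon summits, 10 of 14 and 13 of 18 touched no other list. The same share over all coding-exon summits of the lists is not given here, so these counts cannot be called particular to these genes.
Another 11 SMAD4, 3 DPF3a and 2 p300 peaks with a summit outside these exons reached into one. They include SMAD4 peaks in EGFR introns 8, 14, 22 and 24, in ERBB2 intron 10, in MET introns 9, 12 and 15, and the GAS6 intron 14 site in all 3 lists. With these counted apart too, an alternative chosen after the data were seen, 62 DPF3a, 58 SMAD4 and 31 p300 binding summits and 16 sites of all 3 factors were left.

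**Figure D4:**
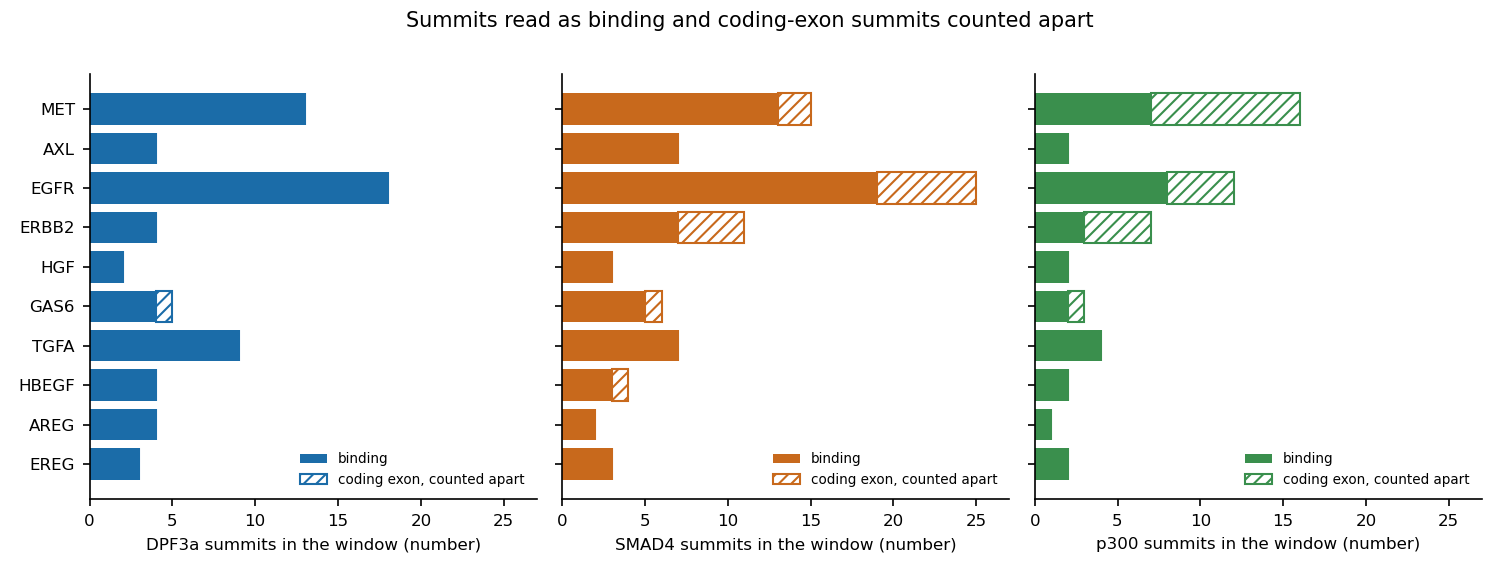
Number of summits per gene and list, split into those read as binding (solid) and those in coding exons that were counted apart (hatched). The hatched parts reach 9 of 16 p300 summits at MET and 6 of 25 SMAD4 summits at EGFR, and a single DPF3a summit, at GAS6, is hatched.

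Short consensus sequences were searched on both strands within 50 bp of each binding summit. The AP-1 letters TGAGTCA were found at 9 of 65 DPF3a summits (13.8%, 7.46 to 24.3), against 22.1% of the list. They were found at 12 of 69 SMAD4 summits (17.4%, 10.24 to 28.0), against 15.1%, and at 0 of 33 p300 summits (upper limit 10.4%), against 3.63%. Of the DPF3a summits with AP-1 letters, 2 were at sites of all 3 factors (AXL and TGFA), 6 at peaks shared with SMAD4 alone and 1 at a peak shared with neither. GAS6 held AP-1 letters at 3 of its 4 DPF3a summits.
The RUNX letters TGTGGTT lay at 4 DPF3a summits (6.15%, against 7.03%), of MET, EGFR, TGFA and EREG. The TEAD letters CATTCC lay at 9 DPF3a summits (13.8%, against 12.5%), 5 SMAD4 summits (7.25%, against 9.39%) and 4 p300 summits (12.1%, 4.82 to 27.3, against 4.745%). The HIF letters TACGTG lay at none of the DPF3a summits (list 1.34%), 2 SMAD4 summits (list 1.31%) and 1 p300 summit (list 1.08%). The SP/KLF letters CCCCGCCC lay at 1 DPF3a summit (list 2.23%), 4 SMAD4 summits (list 3.73%) and 1 p300 summit (list 3.32%). Neither the SMAD palindrome GTCTAGAC nor the CRE letters TGACGTCA were found at any of them, against at most 0.271% of each list. These letters are short, and a match is a description of the sequence only.

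The same count was made for 37 other genes of the pathway. All 37 had a DPF3a binding summit, 35 a SMAD4 and 27 a p300 binding summit, beside 78.7%, 81.0% and 64.1% of all protein-coding genes. Of the 37 genes, 10 held a site of all 3 factors. These were 1 of 5 receptors (MERTK, related to AXL), 2 of 9 ligands (NRG3, a ligand of ERBB4, and PROS1, a ligand of MERTK), 3 of 7 genes of ligand processing (ADAM10 and ADAM17, the proteases that release EGFR ligands, and SPINT2, an inhibitor of HGF activation), 2 of 5 adaptors (SHC1 and PTPN11) and 2 of 11 inhibitors (ERRFI1, which binds EGFR, and SOCS3). PROS1, ADAM10, ADAM17 and SPINT2 held 2 such sites each and the others 1. No more than 2 were found at any of these genes, against 3 at TGFA and 5 at EGFR. These 10 of 37 genes stand beside 41.0% of all protein-coding genes, a difference that was not tested.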

How the data were processed

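ChIP-seq peak lists of HA-DPF3a, SMAD4 and p300 in 786-O cells were analysed (2 replicate libraries per factor, grouped by title). Per the study's methods and processing notes, the authors trimmed reads (cutadapt), mapped them to hg38 (Bowtie2 2.3.5.1), removed low-quality, mitochondrial and duplicate reads (Picard), called peaks (MACS2 2.2.5) and kept scores over 50. How replicates were combined, and any input, are not given in the sources used here. The deposited score is 10 times the −log10 q, cut to a whole number. The authors also deposited the fold enrichment (a ratio), −log10 p, −log10 q and the summit offset. These files hold no columns of comparisons between groups. Values were compared within a list only.

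Summit height in whole reads and local background were computed from fold enrichment and −log10 p, and gave −log10 p back to within 8.6e-04. The lowest local background was 1.17 reads (DPF3a), 2.25 (SMAD4) and 2.05 (p300), and counting error is largest where the median height is lowest, 23 reads for p300. GENCODE 44 gave genes and coding exons. Overlaps were checked with bedtools 2.31.1 (12 of 12 combinations of lists and rules identical), and the recovery of heights was tested on simulated data. Shares have 95% Wilson intervals and heights exact Poisson intervals. Sequence was read from hg38 with samtools 1.23.1, and figures were drawn with matplotlib 3.10.9. All 10 genes are described in every list, with the strongest peak and every site of all 3 factors. The genes, the 37 pathway genes and the motifs were chosen with earlier results of these data known. Alternatives were scores over 100 and 200, other windows, overlaps, promoter widths and exon rules, and −log10 q for strength.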

Additional observations from a re-analysis of the deposited data

How the results depend on the processing

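No paired analysis was possible because both replicates of a factor went into 1 list, so that no replicate could be left out either. With scores over 100, p300 binding summits fell to 13 and sites of all 3 factors to 7. With scores over 200, 30 DPF3a, 38 SMAD4 and 2 p300 binding summits, p300 summits at 2 genes and 2 sites of all 3 factors were left. With 50 kb on either side of the genes there were 50 p300 binding summits, and with coding-exon summits included 51. An overlap of 1 bp gave 27 sites of all 3 factors. Ranked by −log10 q, the same DPF3a peak was the strongest at 6 of 10 genes. It was another peak at MET (104.7 kb from the start), EGFR (114 kb), TGFA (29.35 kb) and EREG (9.58 kb, in the gene and not downstream). Left out after seeing the data, the genes on chromosome 7 took the totals to 32 DPF3a, 34 SMAD4 and 16 p300 summits and 10 sites of all 3 factors, since fewer genes were counted. The 65 other values were within 1.5 times the value reported, or, for shares, within its counting interval. The share of DPF3a peaks shared with SMAD4 ran from 66.2% to 80.0%. The p300 summits, the lowest in reads, and with them the sites of all 3 factors changed most with the score, and the cause was not tested. Whether an input library was used is not given in the sources used here.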
